A study of Mus musculus with 2 samples.

Results

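Metalloproteinases and their inhibitors were followed in mouse embryonic fibroblasts with and without Malat1, a long noncoding RNA of the nucleus. The set was chosen by gene symbol: every matrix metalloproteinase (Mmp), tissue inhibitor of metalloproteinases (Timp), ADAM or ADAMTS gene whose symbol ends in a number or in a number with a or b for Mmp genes, together with Reck. These were 61 genes, read by 110 probe sets, of 18193 genes on the array. They comprised 18 Mmp genes, 23 Adam genes, 15 Adamts genes and 5 inhibitors. A probe set is a group of short oligonucleotides that reads a transcript, usually near its 3′ end.

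The cells were fibroblasts grown from C57BL/6 embryos of day 13.5 and kept for 2 weeks without treatment, from wildtype mice or from mice with a Malat1 knock-out. RNA of each genotype was hybridized to 1 Affymetrix Mouse430_2 array. The labels give neither the number of embryos behind an array nor their sex, nor how the Malat1 allele was made. A single array per genotype leaves every difference without a replicate check, so no p-value is given and precision is limited by the number of arrays.

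These enzymes cut proteins outside the cell and at its surface, using a zinc ion held at the active site. Matrix metalloproteinases degrade collagens and other matrix proteins, and most are made as proenzymes that another protease must activate. ADAMs sit in the membrane and shed growth factors, receptors and adhesion molecules, while ADAMTS enzymes are secreted and process proteoglycans, procollagens and microfibrils. Timp proteins block the active site and Reck is an inhibitor anchored in the membrane. Fibroblasts are a main source of many of these proteins.

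Values are log2 signals of the brightest probe set of each gene, and a difference is knockout minus wildtype. A gene counted as measured where its signal reached a floor, the median of the array's 45037 probe sets other than controls, at 5.39 for the wildtype array and 5.44 for the knockout array. Malat1, the check of the labels, read 9.80 on the wildtype array and 4.53, below the floor, on the other. The arrays also differed in sex-linked RNA, with Xist at 4.50 and 11.49 and the Y-linked Eif2s3y at 8.57 and 2.81, so that the sex of the embryos and the genotype cannot be told apart in any value below. All 12 fibroblast markers, among them Col1a1, Col1a2 and Vim, were measured on both arrays, 8 of them lower and 4 higher in the knockout, with a median of -0.19. In bulk RNA, fewer cells of a type and less RNA per cell cannot be told apart.

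Of the 61 genes, 35 were measured on both arrays, 1 (Timp4) in the knockout alone, and 25 lay below the floor on both. The 35 had 18 lower and 17 higher in the knockout and a median difference of -0.02, against 59.8% lower and a median of -0.05 over 11294 measured genes. Under 3 other scalings of the arrays, 13 or 14 of the 35 were lower and the median was 0.04 to 0.06, against 44.8% to 47.6% lower and medians of 0.01 to 0.02 over all genes. The members were thus near evenly split as deposited, while more were higher than lower under each other scaling. Their median lay above that of all genes as deposited and under each scaling. A common direction was not tested, with 1 array per genotype. Differences of at least 1.5-fold were found for 1 gene higher, Timp3, and 3 lower, Mmp23, Mmp11 and Adamts4. Over all measured genes, 0.832% were that much higher and 1.61% that much lower. Which genes passed depended on the scaling. Timp3 and Mmp24 were that much higher and Mmp23 lower after setting the median difference to 0, Timp3 and Mmp10 higher and 0 genes lower with quantile normalization, and Timp3 higher and 0 lower with loess centring. For all genes the split moved from 94 higher and 182 lower to 146 and 135, 165 and 109, and 134 and 129.

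**Figure D1:**
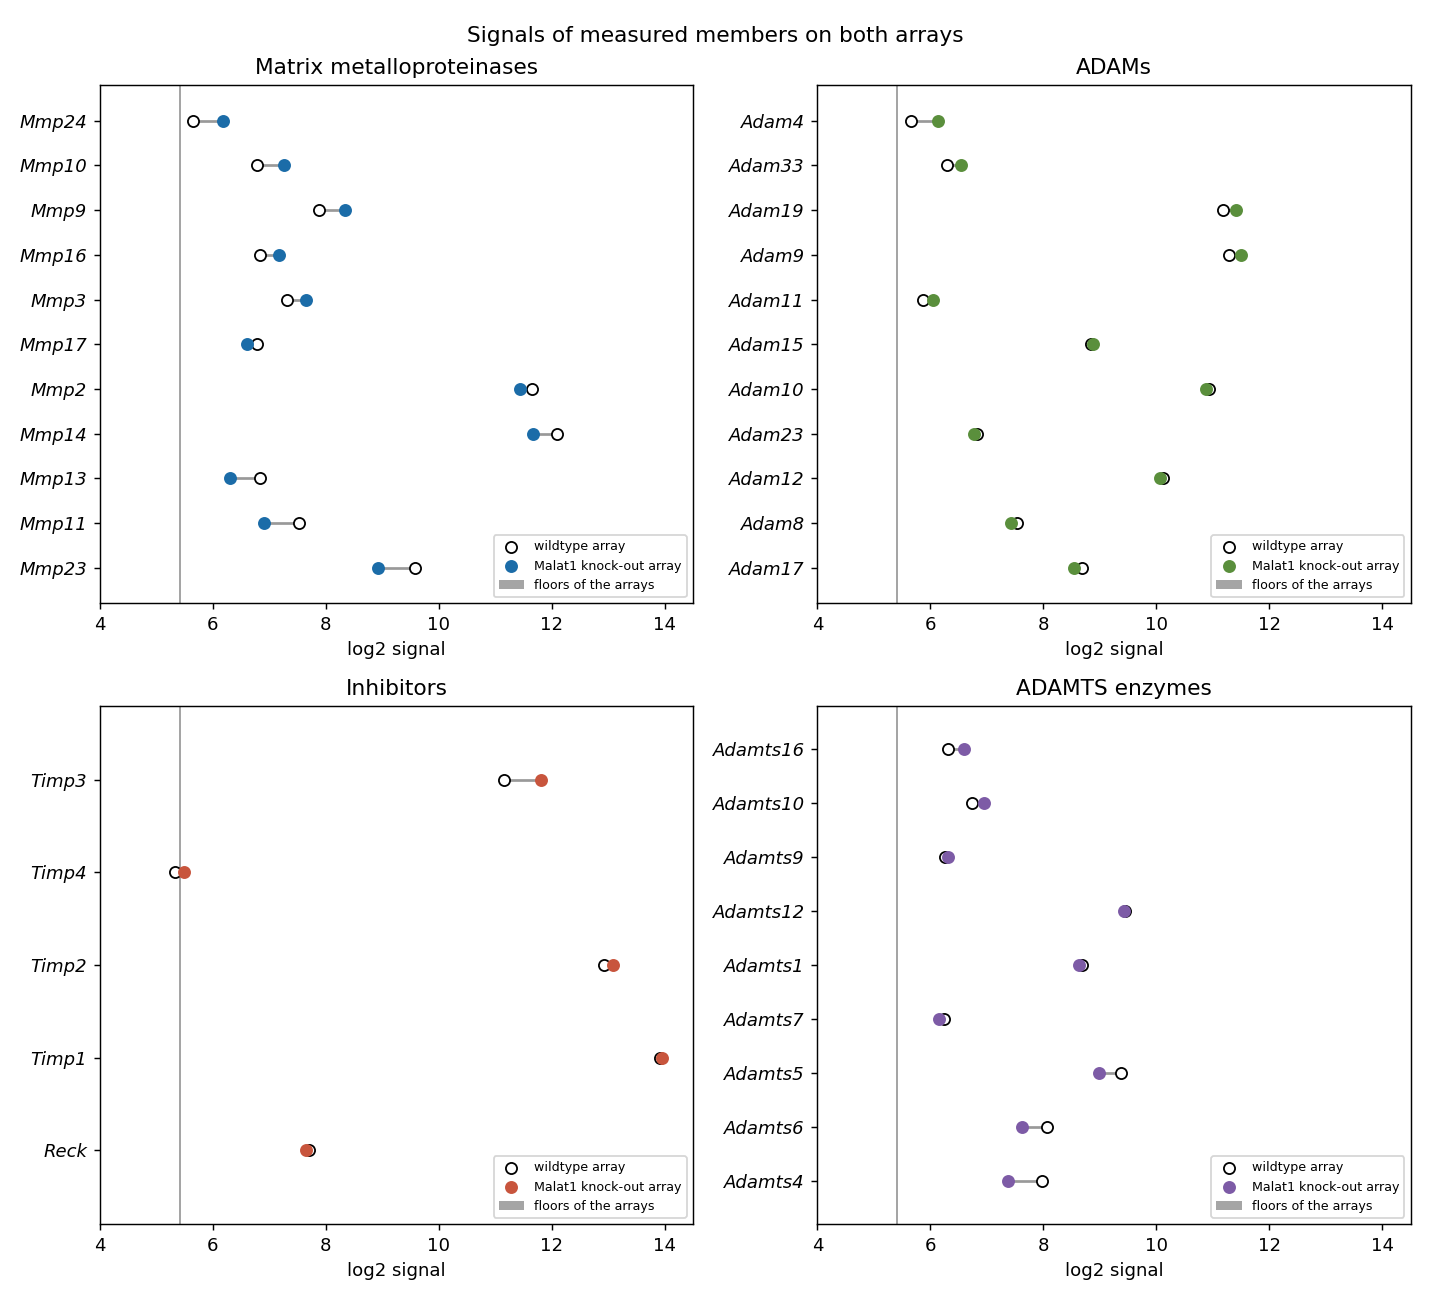
Log2 signals of the 36 members measured on at least 1 array, by class, with the wildtype array as open and the knockout array as filled points and a grey line joining them. The grey vertical bar marks the floors at 5.39 and 5.44; the longest lines belong to Mmp23, Mmp11, Mmp13 and Mmp24, Timp3 and Adamts4, while those of most Adam genes are short.

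The classes differed in how far their members were spread. At a lower mark of 1.3-fold, which 4.02% of all measured genes passed upwards and 6.77% downwards, 3 of 11 measured Mmp genes were higher and 4 lower. Of 11 measured Adam genes 1 was higher and 0 were lower, of 9 Adamts genes 0 were higher and 3 lower, and of 4 inhibitors 1 was higher. Mmp differences ran from -0.66 to 0.53 with a median of -0.18, and Adam differences from -0.14 to 0.48 with a median of 0.04. After median, quantile and loess scaling the Mmp median was -0.12, -0.09 and -0.12. The Adam median was then 0.10, 0.14 and 0.13, with 8 of 11 genes higher each time. Over all genes these medians were 0.01, 0.02 and 0.01. Under the other scalings 5 Mmp genes were 1.3-fold higher and 3 or 4 lower, and the Adam counts stayed at 1 and 0. The share of all genes past 1.3-fold was not counted under these scalings, so the counts under them have no share to be read against. The spread was not tested, since each gene was read once per genotype. The Adamts median was -0.05 and turned to 0.01, 0.06 and 0.05 under the other scalings, and 1 Adamts gene stayed 1.3-fold lower.

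**Figure D2:**
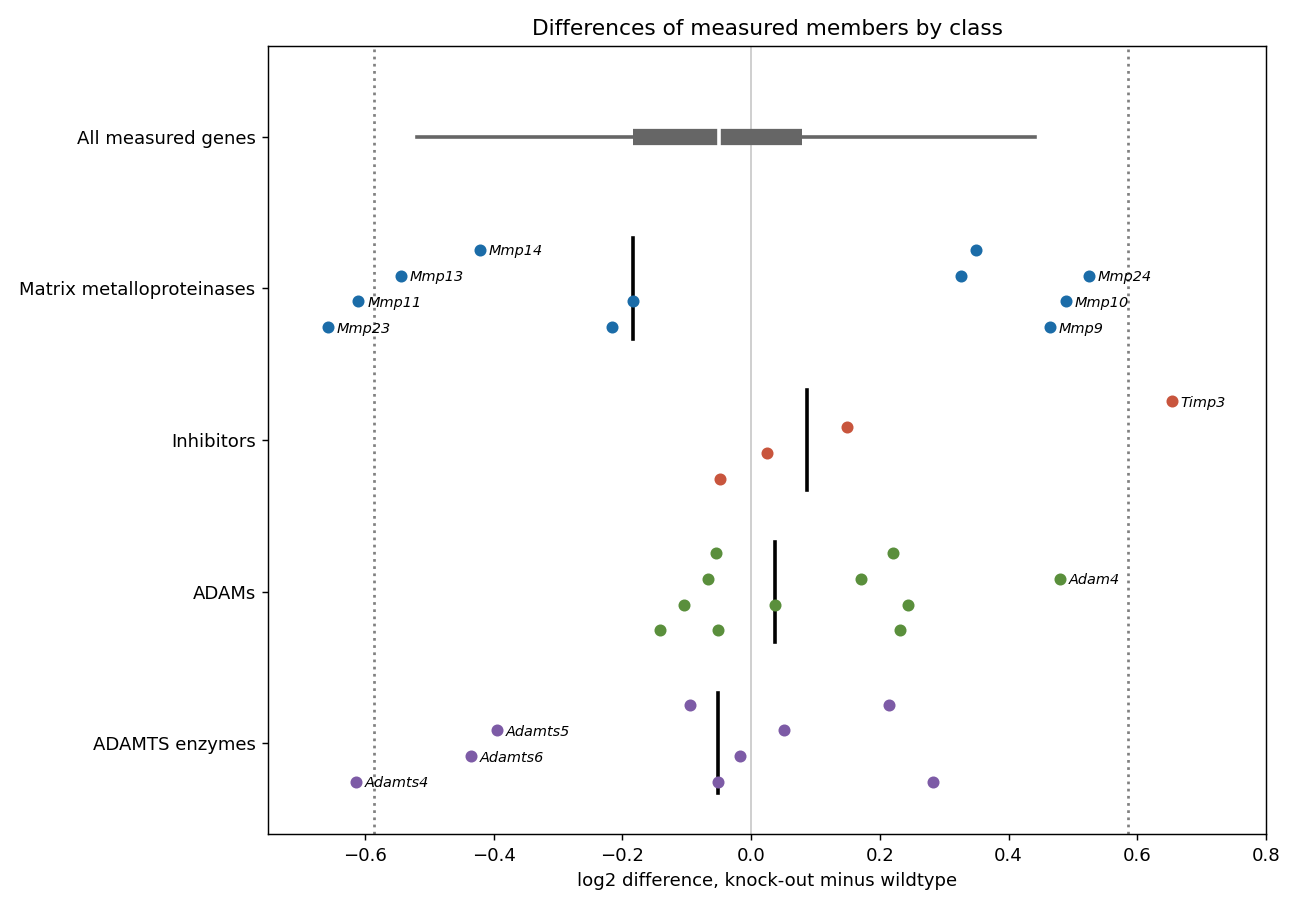
Log2 difference (knockout minus wildtype) of each member measured on both arrays, by class, with the class median as a black bar and members past 1.3-fold named. The grey bar and line at the top span the middle 50% (-0.18 to 0.08) and 95% (-0.52 to 0.44) of 11294 genes, and dotted lines mark 1.5-fold; Mmp genes lie at both ends with few between, and Adam genes lie near 0 apart from Adam4.

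A run of Mmp genes on chromosome 9 holds the collagenases, stromelysins and matrilysin whose transcription is classically induced through AP-1, the dimer of Fos and Jun proteins. In RefSeq gene order it reads Mmp13, Mmp12, Mmp1b, Mmp3, Mmp1a, Mmp10, Mmp8, Mmp27, Mmp20 and Mmp7, with 10 genes in all and 9 with a probe set used here. RefSeq promoter windows, from 250 bases before to 50 after an annotated start in GRCm38.p6, were given for 34 of the 61 genes. They were searched on both strands for the AP-1 motif TGAGTCA and for the TATA motif TATAAA, which do not overlap each other. The AP-1 motif was in a window of 7 of the 9 cluster genes and of 1 of 25 genes elsewhere, Adam19. Counted by gene in the same way, it was in a window of 1607 of all 27025 genes. Counted by window, it was in 8 of 39 windows of the members and in 5.2% of all 32851 windows. All 7 cluster genes also had the TATA motif in the same window, which held for 302 of all 27025 genes and 0.941% of all windows.

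The 120 bases before the start are shown for the cluster genes with an AP-1 match, since they differ in whether the gene gave a signal, with AP-1 and TATA matches in capitals. Mmp3 lies at chr9:7445702-7445821, Mmp10 at chr9:7502222-7502341 and Mmp13 at chr9:7272394-7272513, all on the plus strand, and these gave a signal above the floor. Mmp12 lies at chr9:7347254-7347373, Mmp7 at chr9:7691970-7692089 and Mmp1a at chr9:7464021-7464140 on the plus strand, and Mmp1b at chr9:7388027-7388146 on the minus strand. These 4 were below the floor. Mmp14, at chr14:54431478-54431597 on the plus strand, is shown as a promoter without either motif.
Mmp3: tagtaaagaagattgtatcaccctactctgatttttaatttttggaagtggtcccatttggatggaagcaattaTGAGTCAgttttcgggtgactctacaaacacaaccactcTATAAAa
Mmp10: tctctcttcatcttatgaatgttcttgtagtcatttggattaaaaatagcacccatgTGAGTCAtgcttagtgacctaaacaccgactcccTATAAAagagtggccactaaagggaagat
Mmp13: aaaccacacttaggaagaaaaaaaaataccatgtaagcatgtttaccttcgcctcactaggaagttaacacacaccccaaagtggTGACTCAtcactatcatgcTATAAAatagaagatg
Mmp12: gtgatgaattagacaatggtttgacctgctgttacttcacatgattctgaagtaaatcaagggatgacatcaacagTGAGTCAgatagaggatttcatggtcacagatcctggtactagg
Mmp7: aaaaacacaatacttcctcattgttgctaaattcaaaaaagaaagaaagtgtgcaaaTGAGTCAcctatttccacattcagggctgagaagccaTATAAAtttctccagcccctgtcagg
Mmp1a: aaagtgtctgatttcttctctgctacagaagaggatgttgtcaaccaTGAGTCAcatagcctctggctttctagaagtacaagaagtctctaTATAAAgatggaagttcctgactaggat
Mmp1b: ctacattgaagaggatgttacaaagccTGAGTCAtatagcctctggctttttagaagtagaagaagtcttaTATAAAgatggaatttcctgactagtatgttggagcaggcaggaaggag
Mmp14: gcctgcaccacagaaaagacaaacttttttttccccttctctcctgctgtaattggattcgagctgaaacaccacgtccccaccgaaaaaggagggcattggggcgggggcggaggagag

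The AP-1 match began 46 bases before the annotated start in Mmp3, 63 in Mmp10, 35 in Mmp13, where it lies on the opposite strand, 44 in Mmp12, 63 in Mmp7, 73 in Mmp1a and 93 in Mmp1b. The TATA match of Mmp12 falls just past its start. A match is a description of the letters and not evidence of binding. The 3 cluster genes with a signal did not share a direction.

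Mmp3 (stromelysin-1), which cuts proteoglycans and fibronectin and activates other Mmp proenzymes, read 7.32 and 7.65 (wildtype and knockout, as in all pairs below), 0.33 higher. Mmp10 (stromelysin-2), its close relative, read 6.78 and 7.27, a signal 1.40-fold higher. Mmp13, the main interstitial collagenase of rodents and an enzyme of cartilage and bone, read 6.84 and 6.29, 1.46-fold lower. Each has 1 probe set, and each kept its direction under the 3 other scalings. The other 6 cluster genes with a probe set used here were below the floor on both arrays. They are Mmp12 (4.82 and 4.36), the macrophage elastase, the collagenase genes Mmp1a (2.70 and 2.98), Mmp1b (3.29 and 3.33) and Mmp8 (3.93 in the wildtype, with a difference of 0.06), the enamel enzyme Mmp20 (3.10 and 3.48) and matrilysin, Mmp7 (5.26 on each). Adam19, the gene outside the cluster with an AP-1 match, had it in 1 of its 3 windows.

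**Figure D3:**
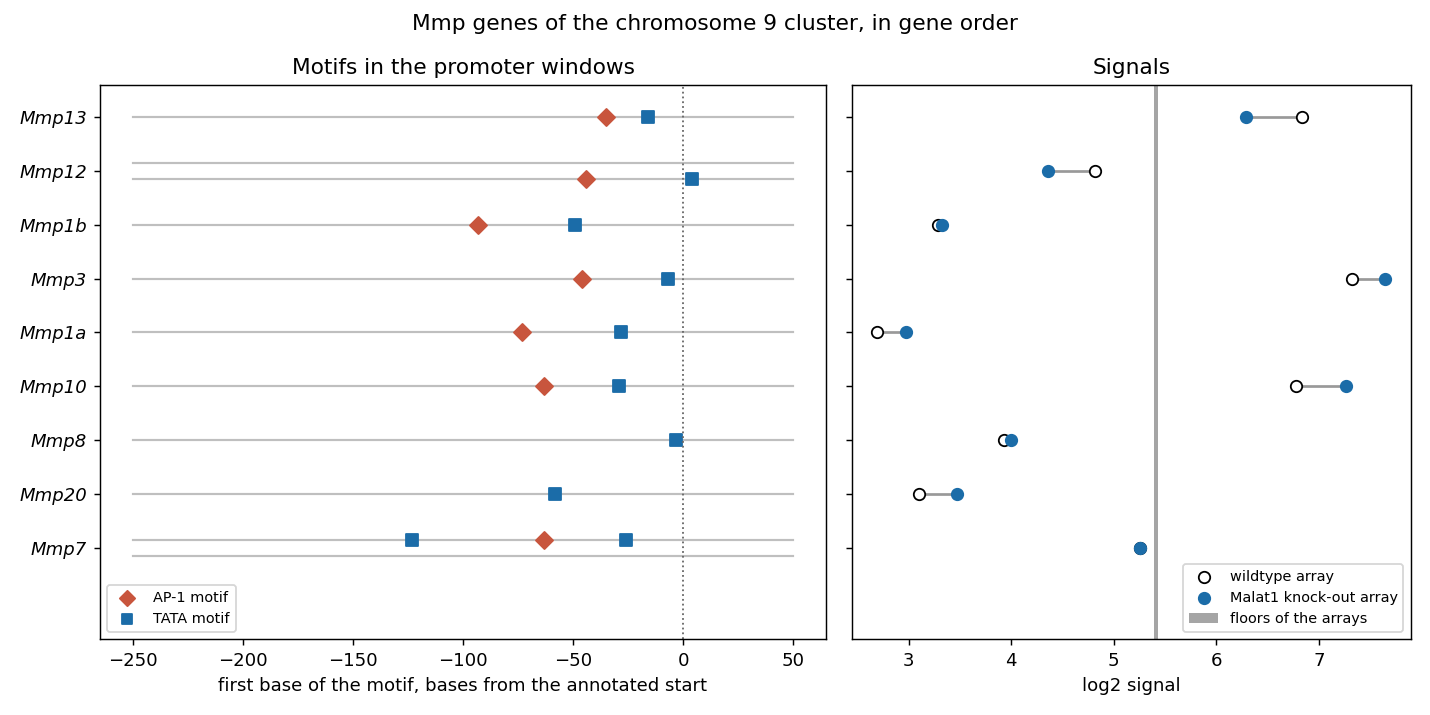
Mmp genes of the chromosome 9 cluster in RefSeq gene order, with Mmp27 not plotted: on the left, the first base of each AP-1 (diamond) and TATA (square) motif in every promoter window, in bases from the annotated start; on the right, log2 signals of the wildtype (open) and knockout (filled) arrays with the floors as a grey bar. Mmp13, Mmp3 and Mmp10 lie above the floors, with Mmp13 lower and the others higher in the knockout, and AP-1 motifs occur on both sides of the floor.

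Values that could bear on these genes were given beside them without a test of their part. Of 13 genes for AP-1, Ets and NF-kappaB factors, 11 were measured, 9 lower and 2 higher, with 0 past 1.5-fold and a median of -0.06, which turned to 0.02 and 0.03 after quantile and loess scaling. Ets2 differed by -0.52, with its other measured probe set at -0.17, Junb by -0.46, and Fosl2 by -0.19, with another probe set at 0.40. Fos read 8.31 and 8.25, Jun 10.25 and 10.27, and Fosl1 8.34 and 8.28, with second probe sets at -0.03 for Jun and -0.23 for Fosl1. Of 9 markers of epithelium, a cell type that makes Mmp7 and Mmp10, 5 were measured on both arrays, all higher, with a median of 0.54. Krt8 and Krt5 were measured in the knockout alone, and Cdh1 and Krt14 were below the floor. Epcam, among the 5, was read by an _x_at probe set at 7.24 and 7.51. Its other probe set was below the floor and lower, at 4.66 and 4.28. Summed linear signals of the 9 were 811 and 1189. Of 8 cartilage and bone markers 6 had a probe set used here, with Col2a1 (10.05 and 9.71) and Sox9 (7.26 and 6.91) measured on both and lower, Acan and Comp measured in the wildtype alone, Sp7 in the knockout alone and Ibsp below the floor. Their summed linear signals were 1356 and 1087. The part of these cells in the Mmp10 and Mmp13 differences was not tested.

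The gelatinases went opposite ways. Mmp2, the constitutive fibroblast gelatinase that degrades type IV collagen and is activated by Mmp14 with Timp2, read 11.65 and 11.43, a difference of -0.22, and its second probe set differed by -0.20. Mmp9, the inducible gelatinase of leukocytes and osteoclasts, read 7.87 and 8.33, 1.38-fold higher, and its second probe set read 7.12 and 7.56. Both Mmp9 probe sets were higher by nearly the same amount, 0.46 and 0.44. Of 11294 measured genes 250, Mmp9 included, differed upwards by at least as much. Of 11 measured macrophage markers 8 (72.7%) were lower, against 59.8% of all measured genes. Their median was -0.28, against -0.05, and their summed linear signals were 5225 and 4323. Csf1r, Fcer1g and Cd14 were higher at their brightest probe sets, and Itgam was below the floor. All 7 neutrophil markers with a probe set used here, such as S100a8, S100a9 and Mpo, were below the floor on both. The part of such cells in the Mmp9 difference was not tested.

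Of the membrane-type enzymes, Mmp14 was lower by every probe set. Mmp14 (MT1-MMP), the main collagenase of the fibroblast surface and the activator of Mmp2, read 12.09 and 11.67 at its brightest probe set, 1.34-fold lower. Its other probe sets read 9.88 and 9.22 (1.58-fold lower) and 8.39 and 7.51 (1.84-fold lower). The brightest thus gave the smallest difference, and the mean over the 3 was -0.65. Mmp16 (MT3-MMP) read 6.83 and 7.18, 0.35 higher, and its other 3 probe sets, not measured on both arrays, differed by -0.17, -0.12 and 0.36. The median over all its probe sets was 0.12. Mmp24 (MT5-MMP), an enzyme best known from the nervous system, read 5.65 and 6.17, 1.44-fold higher, from a wildtype signal just above the floor. The dimmer Mmp24 probe sets, not measured on both arrays, read 5.11 and 5.60, and 3.85 and 4.41. Mmp17 (MT4-MMP), which is held by a lipid anchor, read 6.79 and 6.60.

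The 2 Mmp genes past 1.5-fold were both lower in the knockout. Mmp23, a small enzyme with a membrane anchor at its amino terminus, read 9.58 and 8.93 (1.58-fold lower), and its second probe set 9.02 and 8.56 (1.37-fold lower). Of 11294 measured genes 125 differed downwards by at least as much. Mmp11 (stromelysin-3), made by stromal cells next to epithelium and activated inside the cell by furin, read 7.52 and 6.91 from its only probe set, 1.53-fold lower. Mmp13 at -0.54 and Mmp24 at 0.53 lay just short of the 1.5-fold mark. Mmp19, a broadly expressed enzyme, was below the floor, at 5.33 and 5.12, and its other probe set read 5.17 and 4.02.

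Among the inhibitors the brightest Timp3 probe set was the one past 1.5-fold. Timp3, which is bound to the matrix and also inhibits ADAM17 and the aggrecan-cutting ADAMTS enzymes, read 11.15 and 11.80 there, 1.57-fold higher. Its other probe sets disagreed, reading 11.24 and 11.16, 9.28 and 9.09, and 7.31 and 7.08, so that 1 of 4 was higher and 3 were lower. On the wildtype array the brightest was the one at 11.24, not the one past 1.5-fold. The latter represented the gene only through its high knockout signal, since brightness was averaged over both arrays. The probe sets of Timp3 spanned 0.88, the largest range of any member, and the mean over the 4 was 0.04. With the median over its probe sets Timp3 was at -0.14, so that no direction for Timp3 RNA can be read from these arrays.

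The other inhibitors differed little. Timp1, a secreted inhibitor encoded on the X chromosome and strongly induced in growing fibroblasts, read 13.92 and 13.94, close to the highest signal of any probe set, 14.65, where differences may be compressed. Timp2, which both inhibits Mmp2 and serves in its activation, read 12.93 and 13.08, and its other 4 measured probe sets differed by -0.21 to -0.02. Reck, which restrains Mmp14, Mmp2 and Mmp9, read 7.69 and 7.65. Timp4, an inhibitor of heart and fat tissue, crossed the floor in the knockout alone, at 5.32 and 5.48, a bound of at least 1.06-fold. The signs for Timp1, Timp2 and Reck turned under 1, 2 and 3 of the 10 alternatives, among which a change of floor could not alter a value.

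**Figure D4:**
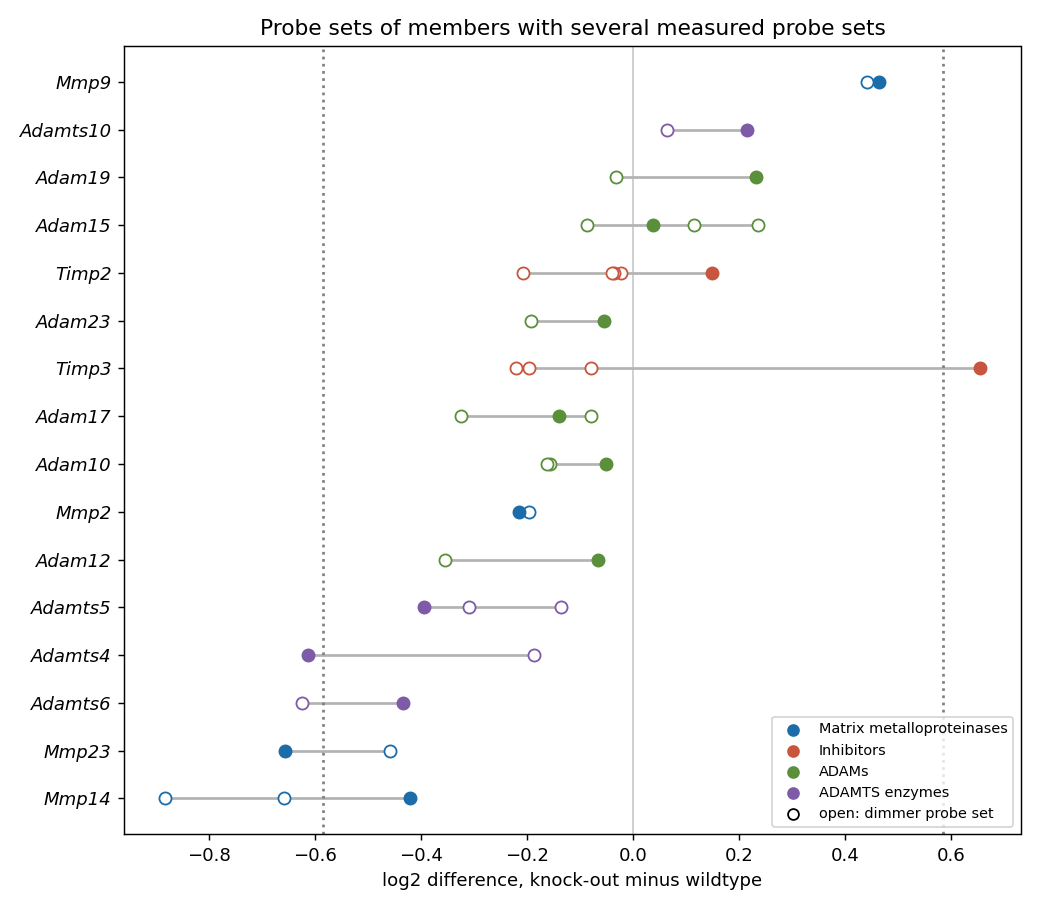
Log2 difference (knockout minus wildtype) of every measured probe set for the 16 members with several, ordered by the median, with the brightest probe set filled and the others open. Dotted lines mark 1.5-fold; all 3 Mmp14 probe sets lie at the left, both Mmp9 probe sets at 0.44 and 0.46, and the filled Timp3 point at 0.65 stands apart from its other 3.

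Repeat probe sets gave a limited check, since they share the RNA of one culture and are not replicates. Of 16 members with several measured probe sets, 12 (75%) had all of one sign, against 56.3% of 4881 genes. The range between probe sets of a member had a median of 0.25, against 0.20 over all genes. Members whose probe sets had both signs were Timp2, Timp3, Adam15 and Adam19.

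Of the ADAM proteases of fibroblasts, most had nearly equal signals. Adam10, the sheddase that cuts Notch receptors and cadherins, read 10.93 and 10.88, and its other measured probe sets each differed by -0.16. Adam17, the sheddase that releases TNF and ligands of the EGF receptor, read 8.69 and 8.55, and its 3 probe sets differed by -0.33 to -0.08. Adam9 read 11.29 and 11.51 from 1 probe set, and Adam12, an enzyme of mesenchyme and developing muscle, 10.13 and 10.06, with a second probe set at -0.35. Adam15 read 8.85 and 8.88 at a probe set whose design can also bind similar transcripts. Adam19, which cuts neuregulins, read 11.17 and 11.40, and its second probe set 7.60 and 7.56.

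The remaining measured ADAM genes had lower signals. Adam8, an enzyme of leukocytes and osteoclasts, read 7.54 and 7.43, and Adam33, an enzyme of airway mesenchyme, 6.30 and 6.54. Adam11 (5.88 and 6.05) and Adam23 (6.83 and 6.77) encode proteins of neurons without protease activity. Adam4 read 5.66 and 6.14, 1.39-fold higher, from 1 probe set just above the floor. The 12 ADAM genes below the floor on both arrays, from 2.40 to 5.24, include Adam2, Adam3, Adam5, Adam18, Adam24, Adam25, Adam32 and Adam34, which are known from testis and sperm, and Adam21, the brightest at 5.24 and 5.04. Of 7 male germ cell markers 6 were below the floor as well. Prm1 read 5.90 and 6.25 at an _x_at probe set, a design that can also bind similar transcripts. The other Prm1 probe sets, also of this design, were far below the floor, at 2.51 and 2.36, and 2.42 and 2.63. Summed linear signals of these 7 were 122 and 147, and their part in the Adam4 difference was not tested.

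Genes that act with the ADAMs were spread around 0. Of 9 partners of ADAM maturation, 7 were measured on both arrays, 4 higher and 3 lower, with 0 past 1.5-fold. Rhbdf1 and Rhbdf2, the inactive rhomboid proteins that carry ADAM17 to the cell surface, differed in opposite directions, at 9.70 and 9.39 for Rhbdf1 and 7.28 and 7.61 for Rhbdf2. Tspan15, a tetraspanin that guides ADAM10, read 6.19 and 6.50. Of 20 proteins shed or cut by ADAMs, 15 were measured on both arrays, 7 higher and 8 lower, with 0 past 1.5-fold. Nrg1, a neuregulin, differed by -0.55, L1cam, a neural adhesion molecule, by 0.44, and Cx3cl1, a membrane-bound chemokine, by -0.38, with another probe set at 0.15.

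Of the measured ADAMTS enzymes, Adamts4, Adamts5 and Adamts6 were past 1.3-fold, all lower in the knockout. Adamts4 (aggrecanase-1), which cuts the proteoglycan aggrecan, read 7.98 and 7.37, 1.53-fold lower, and its second probe set 6.77 and 6.58. Adamts5 (aggrecanase-2), which has the same substrate, read 9.38 and 8.99, 1.31-fold lower, with its other measured probe sets at -0.31 and -0.14. Adamts6, an enzyme of microfibrils, read 8.06 and 7.63 at its brightest and 7.15 and 6.53 at its second probe set, a signal 1.54-fold lower. Adamts1, which cuts versican, read 8.69 and 8.63, and Adamts9, another versican-cutting enzyme, 6.26 and 6.32. Vcan, the gene of versican itself, read 10.92 and 10.76, and its other measured probe sets differed by -0.99 and -0.28. The aggrecan gene Acan read 5.60 and 5.18, measured in the wildtype alone, the brain proteoglycan gene Bcan 5.21 and 5.51, measured in the knockout alone, and Ncan was below the floor. Acan is also one of the cartilage and bone markers given with Mmp13. Only 2 of these, Col2a1 and Sox9, were measured on both arrays, both lower, while Sp7 was measured in the knockout alone. The part of such cells in the Adamts4 and Adamts5 differences was not tested.

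The other measured ADAMTS genes differed by less than 1.3-fold. Adamts12 (9.45 and 9.44) and Adamts7 (6.24 and 6.15) encode enzymes that cut the cartilage oligomeric matrix protein Comp. Adamts10, an enzyme of fibrillin microfibrils, read 6.74 and 6.96, and Adamts16 6.31 and 6.59, with a second Adamts16 probe set at 5.62 and 5.32. The 6 below the floor, from 3.38 to 5.09, include Adamts3, which processes procollagen, at 5.07 and 4.44, as well as Adamts8, Adamts15, Adamts18, Adamts19 and Adamts20.

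Activation, clearance and other inhibition were compared by list. Of 9 activators of proenzymes 8 were measured, 3 higher and 5 lower, with 0 past 1.5-fold and a median of -0.13, which was -0.07 to -0.01 under the other scalings. Plaur, the urokinase receptor, read 10.51 and 10.94, and Plau, urokinase, 7.94 and 7.99. Plat, tissue plasminogen activator, read 10.62 and 10.35, and Furin, the convertase that activates Mmp11, Mmp14 and Mmp23 precursors, 9.55 and 9.31. Of 15 genes for clearance, binding and further inhibition, 12 were measured, 2 higher and 10 lower, with 1 past 1.5-fold upwards. Their median was -0.09, while over all measured genes 59.8% were lower and the median was -0.05. Between 8 and 9 of the 12 stayed lower under the other scalings, with medians of -0.09 to -0.03, against 44.8% to 47.6% of all genes. Tfpi2, a Kunitz-type inhibitor of plasmin and of several Mmp enzymes, read 11.07 and 11.86, 1.73-fold higher, from 1 probe set. Adamtsl3 and Adamtsl4, relatives of the ADAMTS enzymes without a protease domain, read 7.50 and 6.95, and 7.09 and 6.62. Of 8 other metzincins 3 were measured, Bmp1, the procollagen C-proteinase, at 9.99 and 9.59, Tll1 at 10.10 and 10.35, and Pappa, which cuts IGF binding proteins, at 10.93 and 10.93.

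Endothelial markers, a cell type that expresses Mmp14, Timp3 and Adamts1, had 3 of 8 measured on both arrays, all higher in the knockout with a median of 0.47. Their summed linear signals were 743 and 1233, while Pecam1, Cdh5, Tie1, Tek and Cldn5 were below the floor on both arrays. Timp3 differed by 0.65 at its brightest probe set and by -0.08, -0.20 and -0.22 at the others. Mmp14 differed by -0.42, -0.66 and -0.88, and Adamts1 by -0.05. The part of such cells in these values was not tested.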

How the data were processed

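The deposited table holds 1 value per probe set and array (2 arrays). The authors' values were taken as log2 signals from their range, 2.09 to 14.65 outside controls; how they were summarized and normalized was not stated in those sources that were used. The 64 control probe sets were left out. Genes came from the platform annotation, using probe sets with 1 symbol, and each gene was represented by its brightest probe set, averaged over the arrays. The floor (each array's median), marks of 1.5-fold and 1.3-fold, and bounds against the other array's floor stand in for a test, since each genotype has 1 array. Counting of calls was checked on simulated data with planted differences well past the mark in bright genes. That check does not bear on calls near the mark or on dim genes. Alternatives were 3 scalings (median difference set to 0, quantile, loess with span 0.3), floors at the 40th and 75th percentile or none, 64 added to linear signals, a gene's mean over measured probe sets or median over all its probe sets, no _x_at or _s_at probe sets, and marks of 1.3-fold and 2-fold.

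Named genes are all measured members, all inhibitors, the brightest members below the floor, and the 3 largest differences of each list. Fos, Jun, Fosl1, Plau, Acan, Bcan, Ncan, markers and further members below the floor were named after their values were seen, and the TATA motif was added then. The members and lists were chosen with earlier results of these data known. Promoter windows came from RefSeq (GRCm38.p6). The calculations used Python 3.11.15, pandas 2.3.3, numpy 2.4.6, statsmodels 0.14.6 and matplotlib 3.10.9.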

Additional observations from a re-analysis of the deposited data

How the results depend on the processing

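No paired analysis was possible because there is a single array of each genotype. The count of members past 1.5-fold was 1 higher and 3 lower of 35, against 0.832% and 1.61% of all measured genes. A mark of 1.3-fold gave 5 and 7, against 4.02% and 6.77%. A mark of 2-fold gave 0 and 0, against 0.0708% and 0.266%. Setting the median difference to 0 gave 2 higher and 1 lower, against 1.29% and 1.2% of all genes. Quantile normalization gave 2 and 0, against 1.46% and 0.965%, and loess centring left 0 lower, against 1.14%. The floor at the 75th percentile and 64 added to linear signals each left 1 lower, Mmp23. The shares of all genes lower were then 0.979% and 0.646%, and that floor left 17 members measured. The mean over measured probe sets and the median over all probe sets each left 0 higher, against 0.726% and 0.505% of all genes. Under both, Mmp11 and Mmp14 were the lower genes, against 1.4% and 1.17%. The cause of these changes was not tested. The median difference of -0.02 became 0.044 when differences were centred on the median, 0.063 after quantile normalization, 0.058 after loess centring and 0.052 without a floor. Timp3 reversed to -0.14 when its probe sets were summarized by their median. Of 360 values of single members under alternatives, 179 were identical to the reported value. Many of these were fixed in advance and show no stability, since a change of floor cannot alter the difference of a member. Leaving out _x_at and _s_at probe sets altered only Adam15. Of the 181 that differed from the reported value, 170 moved by less than 0.199, the pooled SD between probe sets of one gene. The other 11 moved by that or more. The sign changed 22 times, in 11 members, of which Timp3 was the only one past 1.5-fold. Signals near the floor limit Mmp24, Adam4, Adam11 and Timp4.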

Other observations

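Relatives of the family whose symbols fall outside the rule, namely Adam1a, Adam1b, Adam6a, Adam6b, Adam26a and Adamdec1, were all below the floor on both arrays. Their signals ran from 2.99 for Adam6a in the wildtype to 4.91 for Adam1b in the knockout. Most of these genes are known from testis, as are the members Adam2, Adam3 and Adam5.

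Some probe sets carried exactly the same deposited value on both arrays. There were 1210 of them among 45037 probe sets, and 226 lay at or above the floor. The members Mmp7 (5.26) and Adam18 (3.63) and the relatives Adam1a (3.78) and Adam26a (3.30) were among them, all below the floor. A difference of exactly 0 for these genes is a property of the deposited values and was not examined further.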
